A study of Mus musculus with 8 samples.

Results

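The genes described here encode the proteins of the cytosolic ribosome, measured as short RNA fragments in mouse sperm. They were chosen by name alone: exon rows, and apart from them intron rows, whose gene symbol is Rpl or Rps followed by a number, Rplp0, Rplp1, Rplp2 or Rpsa, with pseudogene names and the Rps6k kinases left out, and counts were summed per symbol. This gave 83 genes with exon rows, 51 of the large and 32 of the small subunit, among 19223 genes with mRNA exon counts, and 80 of the 83 also had intron rows among 19545 genes with intron counts. The samples are 4 ethanol and 4 control sperm libraries of total RNA, made with Trizol and Qiaseq small RNA reagents. By the series title they were taken a month after alcohol ended. Strain, age, ethanol dose and route are not known from the labels. Nothing in the labels states whether replicates are separate mice, and p-values therefore describe only the spread among these 8 libraries, which may be technical.

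The ribosome has a small subunit, which reads the mRNA, and a large subunit, which joins amino acids. Each is built from ribosomal RNA and a set of proteins made in near-equal amounts, and the mRNAs of these proteins share a start rich in pyrimidines that ties their translation to growth signals. Many of the genes also carry small nucleolar RNAs (snoRNAs) inside introns. These are released when the intron is spliced out and then guide chemical modification of ribosomal RNA, so the exons and introns of 1 gene yield RNAs with separate fates. Mature sperm make little protein and keep fragments of RNA from earlier stages, while the epididymis, the duct in which sperm mature, is lined by actively translating epithelium.

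The intron counts lay almost entirely where a snoRNA is annotated, and the snoRNAs below are those of 8 of the 9 intron rows that fell when fitted singly, Snord58b of Rpl17 being named only. Of 298 intron rows of these genes, 57 held a snoRNA by GENCODE M21, and these rows carried 95.3% of intron counts in ethanol and 96.8% in control sperm. The median was 339 counts for a row with a snoRNA and 3 for a row without, over all 8 libraries. Sequences are from the GENCODE M21 transcripts of mouse GRCm38, and capitals mark boxes found by search on the transcribed strand: TGATGA near the 5′ end with CTGA near the 3′ end, the C and D boxes of snoRNAs that guide methylation, or ACA before the last 3 bases, the mark of snoRNAs that guide pseudouridylation. A sequence without capitals held neither form exactly.
Snora70 in intron 5 of Rpl10, chromosome X: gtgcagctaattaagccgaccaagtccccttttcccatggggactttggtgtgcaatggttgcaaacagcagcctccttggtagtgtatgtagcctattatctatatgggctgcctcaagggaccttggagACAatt
Snora64 in intron 3 of Rps2, chromosome 17: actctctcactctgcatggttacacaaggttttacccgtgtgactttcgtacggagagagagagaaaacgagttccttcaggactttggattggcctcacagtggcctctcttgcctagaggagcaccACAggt
Snora21 in intron 2 of Rpl23, chromosome 11: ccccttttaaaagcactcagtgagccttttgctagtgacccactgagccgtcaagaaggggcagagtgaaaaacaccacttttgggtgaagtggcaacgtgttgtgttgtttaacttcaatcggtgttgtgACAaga
Snora65 in intron 4 of Rpl12, chromosome 2: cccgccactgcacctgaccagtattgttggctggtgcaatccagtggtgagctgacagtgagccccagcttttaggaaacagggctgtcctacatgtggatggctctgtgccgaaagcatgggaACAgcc
Snord83b in intron 7 of Rpl3, chromosome 15: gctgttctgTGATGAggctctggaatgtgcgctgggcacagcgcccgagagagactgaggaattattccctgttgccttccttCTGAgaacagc
Gm24134 in intron 5 of Rpl7a, chromosome 2: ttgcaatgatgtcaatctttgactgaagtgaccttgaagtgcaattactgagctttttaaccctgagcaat
Gm23969 in intron 2 of Rpl7a, chromosome 2: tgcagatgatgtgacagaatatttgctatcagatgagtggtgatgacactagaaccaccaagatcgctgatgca
Gm24016 in intron 2 of Rps20, chromosome 4: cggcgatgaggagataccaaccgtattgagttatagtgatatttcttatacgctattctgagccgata
Of 54 snoRNAs of these introns with a sequence, 19 held the C and D boxes in these exact letters, 19 the ACA and 16 neither. Those with neither include Snord43, Snord72 and Snord16a, which are C and D box snoRNAs by name. The split therefore counts exact matches and not kinds of snoRNA. Rows with exact C and D boxes held 52153 counts over all libraries, those with the ACA 4043 and the rest 22304.

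Library totals ran from 3481865 to 6975180 counts. Ethanol replicate 2 stood apart: mRNA exons took 29.3% of its counts, against 6.94% to 9.73% in the other ethanol libraries and 5.08% to 5.81% in control libraries, so results are also given without it. Values are CPM (counts per 1e6 counts of the library, the total scaled by its TMM factor), or log2 fold changes of ethanol over control with a standard error (SE). A feature was called changed at a Benjamini-Hochberg adjusted p under 0.05 in edgeR's quasi-likelihood test, taken over all 13515 features tested.

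Exon fragments of ribosomal protein genes were more abundant in ethanol sperm, nearly without exception, while the intron fragments of the same genes were not. Summed over the 83 genes, exon counts came to 1621, 5612, 1082 and 1699 CPM in ethanol replicates 1 to 4 and to 479, 566, 597 and 692 CPM in control replicates 1 to 4. All 4 ethanol sums lay above all 4 control sums, with ethanol replicate 2 more than 3 times as high as any other library. The group means were 2503 ± 2090 CPM in ethanol and 583 ± 88.1 CPM in control sperm (SD, n = 4 each), a log2 ratio of 2.10, and of 1.33 without ethanol replicate 2. Exon sums of the large subunit genes averaged 1559 CPM in ethanol against 346 CPM in control sperm, and those of the small subunit 945 CPM against 237 CPM. Of all mRNA exon counts these genes made up 1.90%, 2.67%, 1.21% and 1.74% in ethanol libraries and 0.813%, 0.882%, 0.974% and 0.938% in control libraries. The shares did not overlap either, and the log2 ratio of their means was 1.06.

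**Figure D1:**
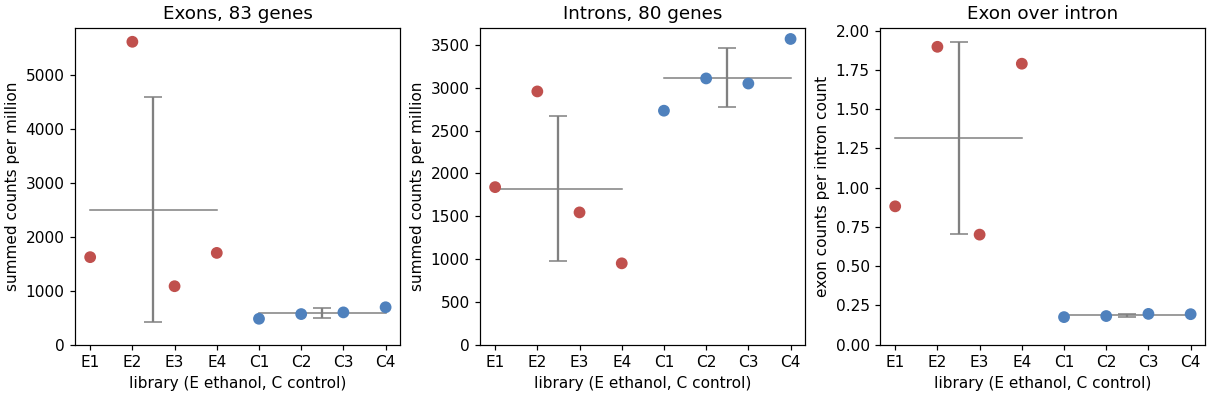
Summed exon CPM of 83 genes, summed intron CPM of 80 genes, and exon counts per intron count, for ethanol (E1 to E4) and control (C1 to C4) libraries; points are libraries, lines the group means and bars 1 SD. Exon sums of all ethanol libraries lie above all controls, intron sums overlap, and the ratio is 0.701 to 1.90 in ethanol against 0.175 to 0.196 in control libraries.

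Of the 83 genes, 77 had enough exon counts to be tested. In ethanol sperm 74 of the 77 rose and 0 fell (edgeR), against 23.8% of 6545 mRNA exon features tested that rose. All 77 estimates were positive. The median log2 fold change was 2.14, beside a median of 0.88 over all mRNA exon features and of 0.87 over those of other genes, and 92.9% of all tested mRNA exon features had a smaller fold change than the members' median. In 71 of the 77 genes all ethanol libraries lay above all control libraries, which held for 28.6% of mRNA exon features. Without ethanol replicate 2, 66 of 77 rose with a median of 1.29, beside 0.47 over all exon features. Of all exon features 14.6% were then called in either direction. With limma-voom 0 of 77 passed (76 at an unadjusted p under 0.05), and without any 1 of control replicates 1, 2, 3 or 4 the edgeR fit passed 0 of 80 (78 or 79 at an unadjusted p under 0.05). These losses were not particular to the members. Of all 6829 exon features limma-voom passed 0, and without control replicates 1 to 4 in turn 0, 0, 0 and 2 passed. With mRNA exons alone scaled and fitted, the median was 1.09 and 0 of 79 passed in edgeR, 68 of them at an unadjusted p under 0.05. Of all 6965 mRNA exon features in that fit 0 passed.

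Genes of both subunits rose. Of 47 tested large subunit genes 46 rose, with a median log2 fold change of 2.16, and of 30 small subunit genes 28 rose, with a median of 2.13. The 3 proteins of the stalk, the arm of the large subunit that recruits elongation factors, all rose: Rplp0 by 2.33 ± 0.55, Rplp1 by 2.40 ± 0.55 and Rplp2 by 2.13 ± 0.56 (SE; edgeR adjusted p = 0.0287, 0.0287 and 0.0305). Genes with a snoRNA in a counted intron had a median of 2.13 over 29 tested genes, and the other 48 a median of 2.20.

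Among the members with the smallest p, most were large subunit genes. Rpl19, which lies near the exit of the peptide tunnel, had 37.1, 118, 17.9 and 44.8 CPM in ethanol sperm and 6.40, 7.59, 7.81 and 9.79 CPM in control sperm, a log2 fold change of 2.78 ± 0.53. Rpl36a had 8.62, 22.2, 2.95 and 7.44 CPM in ethanol sperm and 2.05, 1.26, 0.732 and 2.18 CPM in control sperm, a change of 2.71 ± 0.58 on few counts. Rpl19 had no overlap between groups. Rpl36a had none either, though its ethanol replicate 3 came close to the highest control. Control libraries held 24 counts of Rpl36a together, so it had enough counts to be tested only through its ethanol libraries. Its lack of overlap follows from that filter and adds no support. Rpl23a, which lies at the exit of that tunnel, rose by 2.57 ± 0.53, Rpl28 by 2.57 ± 0.55, Rpl27 by 2.37 ± 0.51, Rpl14 by 2.35 ± 0.47, Rpl35 by 2.32 ± 0.51 and Rpl29 by 2.27 ± 0.46 (SE, log2; edgeR adjusted p = 0.0287 each). In the small subunit they included Rps26, which touches the mRNA at the exit channel, with 37.1, 121, 30.8 and 56.3 CPM in ethanol sperm and 5.38, 12.9, 10.3 and 14.4 CPM in control sperm, and Rps14 with a rise of 2.32 ± 0.50. The rise of Rps26 was 2.51 ± 0.50, and its lowest ethanol value was over 2 times its highest control value.

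**Figure D2:**
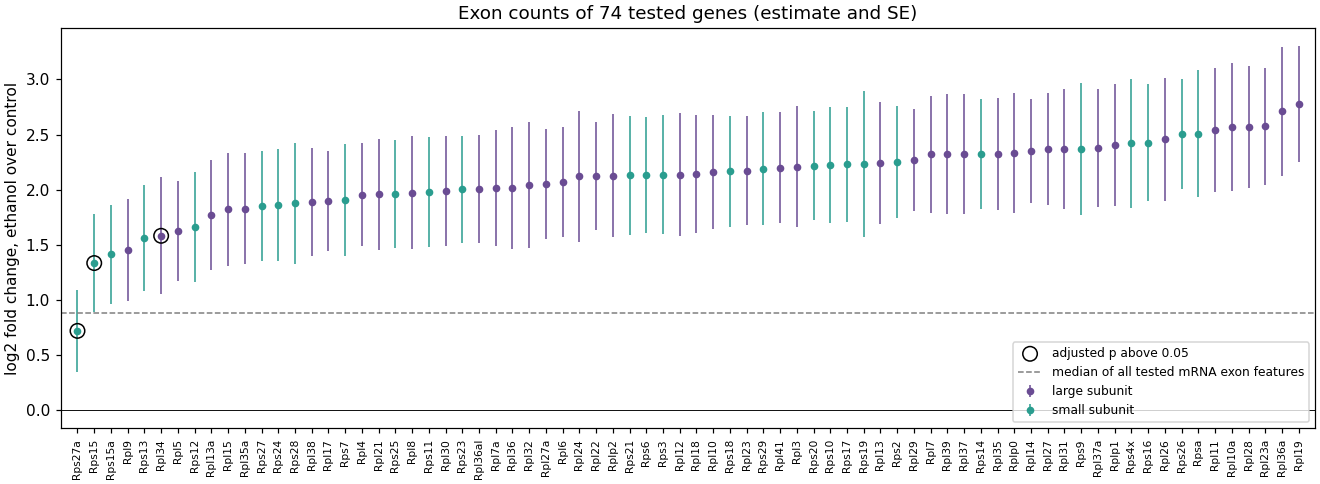
Log2 fold change of exon counts, ethanol over control, with 1 SE, for 74 of the 77 tested genes in rising order, coloured by subunit; the dashed line is the median of all tested mRNA exon features, 0.88. Ringed genes missed the threshold (Rps27a, Rps15 and Rpl34), and only Rps27a lies below the dashed line.

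3 tested genes missed the threshold: Rps27a, Rps15 and Rpl34. Rps27a, whose protein is made as a fusion with ubiquitin, stood furthest from the rest. It had 46.4, 69.1, 60.1 and 30.8 CPM in ethanol sperm against 29.96, 27.3, 30.8 and 37.3 CPM in control sperm, and here the groups overlapped. Its log2 fold change was 0.72 ± 0.37 (edgeR adjusted p = 0.188), and its sign turned to -0.09 when mRNA exons alone were fitted. Rps15 changed by 1.33 ± 0.44 (edgeR adjusted p = 0.0557) and Rpl34 by 1.58 ± 0.53 (edgeR adjusted p = 0.0583), both with all ethanol libraries above all controls. The best counted exon of Rps27a held 49.9% of its counts in ethanol and 62.5% in control sperm.

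Per kilobase of exon, the order of the genes was nearly the same in both groups. Rpl41, which encodes a very short basic peptide, was highest, at 215 CPM per kb in ethanol and 46.6 in control sperm, and a single exon row held 97.6% and 93.4% of its counts. Rpl10, which joins the large subunit late in its assembly, followed in ethanol sperm at 119 CPM per kb, against 26.5 in control sperm. Rplp1 had 112 and 21.2. Among the 77 tested genes Rps15a was lowest at 1.40 and 0.520 CPM per kb, on an exon length of 5179 bases, the longest used. Its copies Rps15a-ps4 and Rps15a-ps6 had 113 and 151 counts, beside 200 for Rps15a. A shorter transcript length would raise its level per kb, so its rank depends on the length taken. The rank correlation of these levels over the 77 genes was 0.933. It describes group means over genes that share libraries. Rank correlation of the log2 fold change with exon length was 0.04, and with the control level per kb -0.19.

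Of the genes with the most exon counts, Rpl10 had 67.5, 215, 37.9 and 59.0 CPM in ethanol sperm and 18.7, 23.01, 18.3 and 24.8 CPM in control sperm. Rpl41 had 58.0, 199, 42.0 and 76.3 CPM in ethanol sperm and 19.5, 17.2, 16.6 and 28.3 CPM in control sperm. Rplp0, the base of the stalk, had 46.4, 189, 31.5 and 47.5 CPM in ethanol sperm and 11.3, 16.7, 17.6 and 16.9 CPM in control sperm. In each of the 3, ethanol replicate 2 was more than 2 times as high as the next library, and the other ethanol libraries were still above every control. Rpl13 rose by 2.24 ± 0.55, Rpl4, which lines the peptide tunnel, by 1.95 ± 0.47, Rpl10 by 2.16 ± 0.52 and Rpl41 by 2.20 ± 0.50 (SE, log2; edgeR adjusted p = 0.0287 each).

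**Figure D3:**
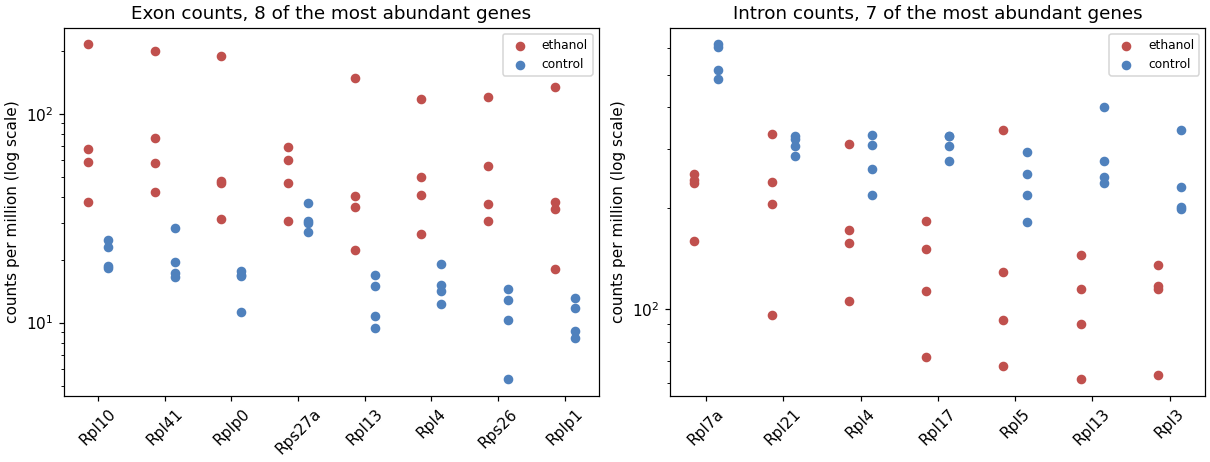
CPM on a log scale in each ethanol and control library, for the 8 genes with the highest mean exon counts (left) and 7 of the 8 with the highest mean intron counts (right). Exon values of ethanol libraries lie above those of controls in all of the 8 but Rps27a, while intron values of Rpl7a, Rpl17, Rpl13 and Rpl3 lie below controls and those of Rpl21, Rpl4 and Rpl5 overlap.

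Reads were spread unevenly along the mRNAs, with most of them in inner exons in both groups. Over 79 genes with at least 3 exons, the first exon held 4.68% ± 0.573 of exon counts in ethanol and 5.22% ± 0.419 in control sperm, for 14.6% of the length. Inner exons held 65.5% ± 2.45 and 61.2% ± 1.08, for 41.5% of the length, and the last exon 29.8% ± 2.58 and 33.6% ± 0.815, for 43.9% (SD, n = 4 each). The inner share was higher, and the last share lower, in all 4 ethanol libraries than in all 4 controls, a small difference that was not tested. Single exon rows gave the same picture as sums: of 163 rows tested singly 125 rose and 0 fell (edgeR, all 163 estimates positive), against 21.5% of exon rows overall. The table gives no position within an exon.

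The start sites of these genes were searched for CTTTC, a short form of the pyrimidine start of ribosomal protein mRNAs, within 15 bases on either side of the RefSeq start (GRCm38.p6), on both strands. Of 62 member genes with a RefSeq promoter 17, or 27.4%, held it on the transcribed strand, against 4.76% of all genes with a promoter, and 3.23% against 4.21% held it on the opposite strand. No other motif was searched. The windows of 4 of the 17 are printed on the transcribed strand, with the motif in capitals, as examples picked because they hold it. Rpl19, Rpl36a, Rpl27 and Rpl14, which also had large exon rises, did not hold these letters in the window.
Rps26, chr10:128626492-128626521, minus strand: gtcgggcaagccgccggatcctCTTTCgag
Rpl13, chr8:123102335-123102364, plus strand: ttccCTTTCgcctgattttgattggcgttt
Rpl28, chr7:4792950-4792979, plus strand: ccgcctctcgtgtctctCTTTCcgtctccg
Rpl35, chr2:39005117-39005146, minus strand: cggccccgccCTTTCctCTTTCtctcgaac

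Intron fragments of the same genes fell or did not pass the test. Of the 80 genes 23 had enough intron counts, and every one of the 23 held an annotated snoRNA in a counted intron. In ethanol sperm 8 of them fell and 0 rose (edgeR, 14 lower and 0 higher at an unadjusted p under 0.05), against 1.88% of 5159 intron features tested that fell. Introns in general are an unlike comparison, and of 89 snoRNA features 20.2% fell. The members' median log2 fold change was -1.04, beside -0.38 over all introns and -0.78 over all snoRNA features. In 11 of the 23 all ethanol libraries lay below all controls, which held for 11.5% of introns. Intron sums of the members were 1840, 2958, 1545 and 950 CPM in ethanol replicates 1 to 4 and 2733, 3110, 3051 and 3571 CPM in control replicates 1 to 4. Ethanol replicate 2 lay within the control range, and the other ethanol libraries lay below it. Without ethanol replicate 2, 16 of 24 fell, while leaving out ethanol replicate 1 or 4 left 4 or 3, leaving out any 1 control left 0 (13 to 16 at an unadjusted p under 0.05), and limma-voom, library totals or introns alone left 1. Over all introns the share called in either direction was 3.50% without ethanol replicate 2, and 5.39% or 0.626% without ethanol replicate 1 or 4. It was 0.0178% to 0.0893% without 1 control. With limma-voom, library totals or introns alone it was 0.0969%, 0.678% or 0.0949%.

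Rpl10 had the largest fall, with 4.60, 3.29, 5.89 and 2.71 intron CPM in ethanol sperm against 13.6, 15.9, 19.8 and 24.5 CPM in control sperm (log2 fold change -2.15 ± 0.37, edgeR adjusted p = 0.0287). The highest ethanol value was under the lowest control value by over 2-fold, and ethanol replicate 2 was not apart. Its counts lay mainly in the intron of Snora70. Rps2, a protein of the mRNA entry channel, had 1.15, 4.32, 2.21 and 0.338 intron CPM in ethanol sperm and 5.38, 10.6, 7.57 and 7.07 CPM in control sperm (-1.96 ± 0.54, edgeR adjusted p = 0.0328). Rpl23 had 1.29, 2.47, 1.66 and 2.54 intron CPM in ethanol sperm and 4.86, 5.56, 10.5 and 5.44 CPM in control sperm (-1.73 ± 0.41, edgeR adjusted p = 0.0287). Most of these low counts lay in the introns of Snora64 and Snora21, and the groups did not overlap. The introns of Rps2 and Rpl23 had enough counts to be tested only through their control libraries. Their lack of overlap therefore adds no support.

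Rpl7a was the best counted of the introns that fell, with 238, 253, 242 and 160 CPM in ethanol sperm against 484, 516, 616 and 604 CPM in control sperm (-1.31 ± 0.40, edgeR adjusted p = 0.0446). It has several snoRNA introns, and those of Gm24134 and Gm23969 fell when fitted as single rows, by 1.40 ± 0.34 and 1.18 ± 0.36 on the log2 scale (edgeR adjusted p = 0.0333 and 0.0488). Its intron 6, in which no snoRNA is annotated, still held 2127 counts, the most of any such row, with a log2 fold change of -0.31 ± 0.39. Rpl13 introns fell by 1.5 ± 0.43, those of Rpl12 by 1.43 ± 0.37, those of Rps20 by 1.40 ± 0.34 and those of Rps12 by 1.33 ± 0.40 on the log2 scale (edgeR adjusted p = 0.0369, 0.03, 0.0287 and 0.0433), all without overlap between groups. Rpl17 and Rpl3 also had no overlap but missed the threshold as sums (edgeR adjusted p = 0.0587 and 0.0704).

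Among single intron rows 9 of 39 fell and 0 rose (edgeR, 15 of 39 at an unadjusted p under 0.05), against 1.77% of intron rows overall and 20.2% of 89 snoRNA features. They were the introns of Snora70, Snora65, Snora21, Snora64, Snord83b, Gm23969, Gm24134 and Gm24016, whose sequences are given above, and intron 1 of Rpl17 with Snord58b. The rows of Snora64 and Snora21 had enough counts to be tested only through their control libraries. In the Rpl3 gene the rows parted by value: intron 7 with Snord83b had 80.4, 91.9, 71.0 and 47.9 CPM in ethanol sperm and 162, 128, 154 and 267 CPM in control sperm, while intron 1 with Snord43 changed by -0.18 ± 0.42. CPM of single rows are scaled within the fit of single rows. By box, among fitted rows whose snoRNA sequence was searched, the fall passed in 1 of 11 with exact C and D boxes. It passed in 4 of 13 with an ACA and in 3 of 11 with neither. Snord58b is left out. Rows with neither include C and D box snoRNAs by name, such as Snord43, so these are not shares by kind of snoRNA. The shares were not tested against each other.

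Some of the best counted introns did not pass. Rpl21, Rpl4 and Rpl5 changed by -0.51 ± 0.44, -0.58 ± 0.44 and -0.58 ± 0.51, each with overlap (edgeR adjusted p = 0.426, 0.355 and 0.431).

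Exon and intron counts of 1 gene share a library, so the scaling of the library cancels in their ratio. In ethanol sperm the exon to intron ratio was higher in 23 of 23 members with both counts, against 12% of 3309 genes (edgeR interaction of feature type with group, library as a block, adjusted over the 3309). The 3309 were not limited to genes with a snoRNA in an intron, which all 23 members hold. The median log2 change of the ratio was 3.04, beside 0.92 over all genes. Summed over the members there were 0.881, 1.90, 0.701 and 1.79 exon counts per intron count in ethanol sperm, against 0.175, 0.182, 0.196 and 0.194 in control sperm. The lowest ethanol ratio was over 3 times the highest control ratio, and the control libraries differed little.

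The ratio rose most in Rps2, by 4.18 ± 0.58 on the log2 scale, and in Rpl10, by 3.99 ± 0.58 (SE; edgeR adjusted p = 0.000405 each). Rpl23 at 3.67 ± 0.52, Rpl13 at 3.43 ± 0.53, Rps20 at 3.34 ± 0.49, Rpsa, which also occurs as a laminin receptor at the cell surface, at 3.08 ± 0.51, and Rpl17 at 3.06 ± 0.51 were also among the 8 with the smallest p. The introns of Rps2 and Rpl23 entered this test only through their control libraries. Across the 23 genes the rank correlation of exon with intron fold changes was -0.25. Leaving out any 1 library left 18 to 23 of the 23 past the threshold, against 1.36% to 25.5% of all 3309 genes.

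**Figure D4:**
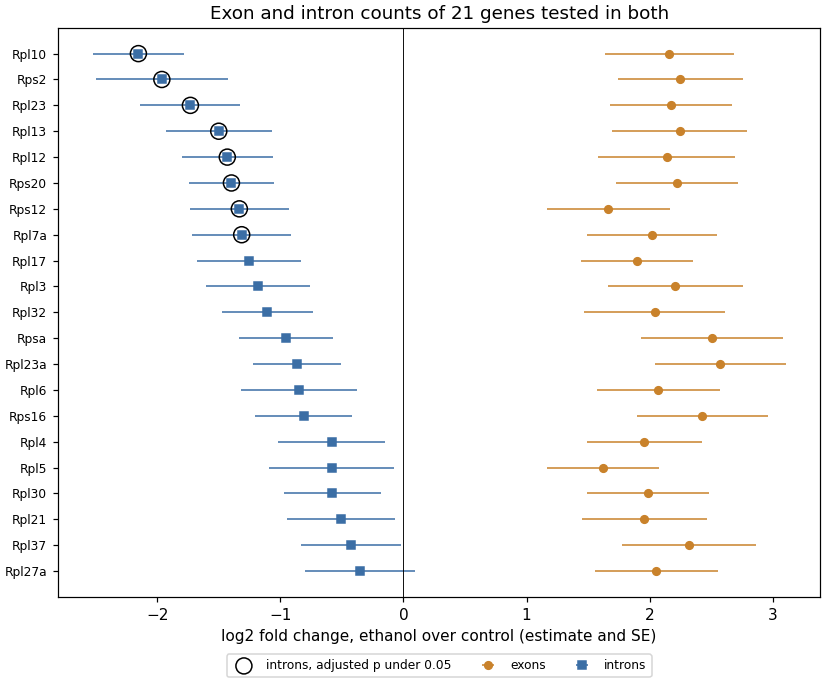
Log2 fold change of exon counts (circles) and intron counts (squares), ethanol over control, with 1 SE, for 21 of the 23 genes tested in both, in order of the intron value; rings mark introns past the threshold. Exon values drawn run from 1.62 to 2.57, and intron values from -2.15 to -0.35, so the 2 sets of points do not meet.

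The snoRNAs of ribosomal protein introns also have rows of their own. Of 28 listed snoRNAs found in the table, 25 could be tested, and 12 fell and 0 rose (edgeR, 17 lower and 0 higher at an unadjusted p under 0.05; 16 lower with DESeq2, 0 with limma-voom), against 20.2% of 89 snoRNA features that fell. Their median log2 fold change was -1.23, beside -0.78 over all snoRNAs. Snord32a, from Rpl13a, had 16.7, 21.4, 24.9 and 13.5 CPM in ethanol sperm and 54.0, 77.6, 64.4 and 65.8 CPM in control sperm. Snord100, from Rps12, had 48.5, 48.7, 45.5 and 23.7 CPM in ethanol sperm and 101, 111, 118 and 152 CPM in control sperm. Both were lower in all ethanol libraries, by 1.78 ± 0.37 and 1.53 ± 0.40 on the log2 scale (edgeR adjusted p = 0.0287 and 0.0304). Where a snoRNA had its own row and its intron row was also fitted, the signs were equal in 14 of 16 cases, and both passed in 5: Snora70, Snora65, Snora21, Snora64 and Snord83b. The own rows of Snora70, Snora65, Snora64 and Snord83b had enough counts to be tested only through the control libraries. The same held for Snora7a and Snord35b among the 12. That these passed adds no support. The signs differed for Snora3 and Snord16a, from Rpl4. Snord16a had 113, 625, 40.5 and 42.1 CPM in ethanol sperm and 52.5, 97.1, 38.3 and 41.9 CPM in control sperm, with overlap (1.83 ± 0.76, edgeR adjusted p = 0.11). Of the 41 snoRNA introns with at least 30 counts, 21 held a snoRNA with no row of its own, and these carried 69.9% of the counts of the 41.

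Most paralogs that replace a ribosomal protein in some tissues had few counts. Rpl10l, which takes the place of the X-linked Rpl10 in male germ cells, had 0.718, 0.411, 1.47 and 0 CPM in ethanol sperm and 0.512, 1.01, 1.46 and 1.09 CPM in control sperm, on 15 and 16 counts. Rpl39l, also a germ cell paralog, had 37 counts in ethanol and 19 in control sperm, and Rpl3l, found in muscle, had 41 and 12. Rps4l and Rps27l had 175 and 95 counts in ethanol and 13 and 21 in control sperm, and Rpl32l had 192 and 22. These 6 were too low to be tested. Rpl36al was the exception, with 313 counts against 252 for Rpl36a, and rose by 2.01 ± 0.49, beside 2.71 ± 0.58 for Rpl36a. The log2 ratio of paralog to parent differed by -3.02 between ethanol and control sperm for Rpl10l over Rpl10, a difference that reached p = 0.0571 in an exact permutation test, two-sided, with 70 assignments (adjusted p = 0.343 over 6 pairs), and the 5 other pairs had adjusted p of 0.386 to 0.457. The smallest p this test can give is 0.0286. Some copies share sequence: Rpl14 had 486 counts and its pseudogene Rpl14-ps1 531, Rplp2 269 and Rplp2-ps1 267. The labels do not say how such reads were divided, so the level of a gene with such copies is uncertain.

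Other genes of translation were counted from fixed lists. Of 6 ribosomal proteins outside the naming rule 4 rose and 0 fell (edgeR; 5 rose with DESeq2, 0 with limma-voom, 4 without ethanol replicate 2), with a median log2 fold change of 2.07: Fau, which encodes a small subunit protein, had 33.9, 146, 22.8 and 44.3 CPM in ethanol sperm and 10.2, 15.4, 11.5 and 16.6 CPM in control sperm, and Rack1 and Rps3a1 were among the others that passed. Of 14 translation factors and other mRNAs that share the pyrimidine start 11 rose and 0 fell, with a median of 1.78 (11 with DESeq2, 0 with limma-voom, 9 without ethanol replicate 2). Eef1a1, which brings tRNAs to the ribosome, had 229, 871, 136 and 249 CPM in ethanol sperm and 54.5, 97.1, 73.7 and 89.5 CPM in control sperm (2.24 ± 0.57, edgeR adjusted p = 0.0293). The groups did not overlap. Of 11 tested genes of ribosome assembly 3 rose and 0 fell, namely Ncl, Npm1 and Nop10, with a median of 1.24 (5 with DESeq2, 0 with limma-voom, 1 without ethanol replicate 2), and the share called is near the 23.8% of all mRNA exons. No estimate in these 3 lists was negative. Of all exon features 34.8% were called with DESeq2, 0% with limma-voom and 14.6% without ethanol replicate 2.

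Epididymal epithelium markers rose alongside these exon counts, while 0 of 14 tested sperm markers and 1 of 7 tested blood markers rose (edgeR). Sperm and spermatid markers summed to 251 to 703 CPM in ethanol and 647 to 822 CPM in control sperm, and overlapped, with 15 of 15 listed genes present and 0 of 14 tested called (edgeR, 2 lower at an unadjusted p under 0.05; 2 lower with DESeq2, 0 with limma-voom), a median log2 fold change of -0.53. Protamine 2, the main DNA packing protein of sperm, had 52.4, 31.5, 101 and 69.2 CPM in ethanol sperm and 75.3, 64.7, 100 and 102 CPM in control sperm. Of 18 epididymal epithelium markers 17 were in the table, 7 were tested and all 7 rose in edgeR, against the 23.8% of mRNA exons, with a median of 2.49 (5 with DESeq2, 0 with limma-voom, 6 without ethanol replicate 2): Crisp1, Spink8, Adam7, Krt8, Krt18, Epcam and Aqp9. Some genes that define segments of the duct were near 0, such as Lcn5 at 0.870 CPM in ethanol and 0.436 CPM in control sperm. The 17 markers summed to 2878, 12468, 1010 and 1472 CPM in ethanol replicates 1 to 4 and to 444, 566, 666 and 778 CPM in control replicates 1 to 4. Most of this was Crisp1, with means of 3400 of 4457 CPM in ethanol and 477 of 614 CPM in control sperm. Adam7 had 1468 CPM in ethanol replicate 2. Of the 7 that rose, Adam7 and Aqp9 overlapped between groups. Ethanol replicate 2 was highest in the epididymal sum, in ribosomal protein exons and in all mRNA exons, and lowest in sperm markers, while ethanol replicate 3 was lowest among ethanol libraries in ribosomal protein exons and highest in sperm markers. Ethanol replicates 1 and 4 went otherwise. Replicate 1 had the higher epididymal sum (2878 against 1472 CPM) and the lower sperm marker sum (446 against 542 CPM). Its ribosomal protein exon sum was also lower, 1621 against 1699 CPM. The relation of these sums was not tested.

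Blood and immune markers, all 12 in the table, summed to 180 to 2645 CPM in ethanol and 94.0 to 131 CPM in control sperm. The median log2 fold change of the 7 tested was -1.55, opposite in sign to the sums, because Cd52 alone averaged 863 CPM in ethanol and 67.8 CPM in control sperm. Of the 7, 1 rose, Cd52, which epididymal epithelium also makes, and 2 fell, the globins Hba-a1 and Hba-a2. The part of other cells in the exon and intron differences was not tested. In such bulk samples fewer cells of a type and less RNA per cell cannot be told apart.

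**Figure D5:**
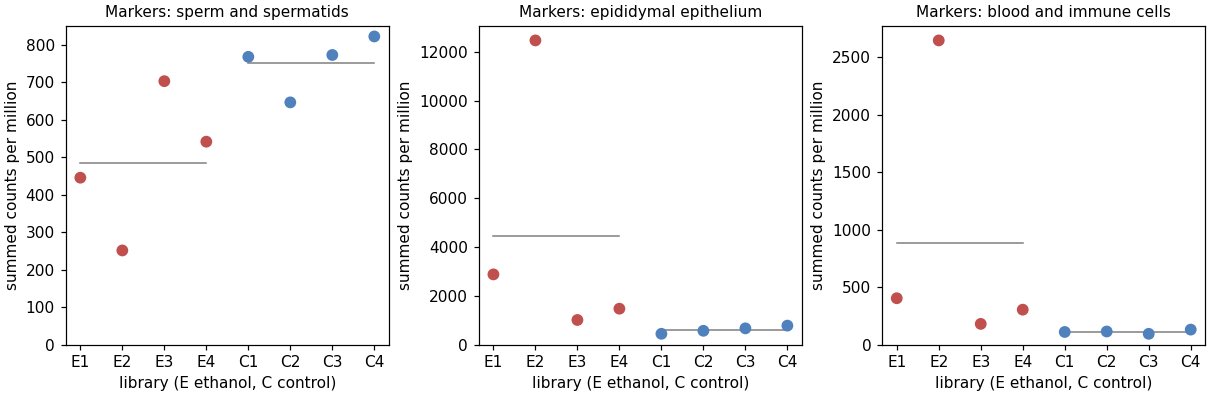
Summed CPM of the marker lists of sperm, of the epididymis and of blood in ethanol (E1 to E4) and control (C1 to C4) libraries; points are libraries and lines group means. Epididymal sums are 1010 to 12468 CPM in ethanol and 444 to 778 CPM in control libraries, and the sperm marker sum is lowest, 251 CPM, in ethanol replicate 2.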

How the data were processed

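Reads were counted by the authors, and the deposited table holds whole-number counts for each exon, intron and other RNA in 8 libraries, per the file headers. The aligner and genome build are not named in the labels. The 1078961 rows were summed per gene and type into 45090 features, of which 13515 passed filterByExpr with a minimum count of 10. Rows of alternative transcripts can repeat an exon: the last exon of Rpl22 occurs under separate transcripts with the same 118 counts each. Sums of such genes hold those reads more than once. Ethanol was compared with control in edgeR 4.0.16 (R 4.3.3) by quasi-likelihood with TMM scaling and Benjamini-Hochberg adjustment at 0.05, without a replicate block. Exon to intron ratios were tested as an interaction. Alternatives were DESeq2 1.42.0, limma 3.58.1, other scalings and filters, the replicate block, omitted libraries and, added after seeing the data, single rows. The script was tested on simulated counts. Intron numbers in the table run in genome order: of 18 well counted minus-strand rows, 15 held a snoRNA under that order and 7 under transcript order. Members named with values are the 12 exon, 12 intron and 8 ratio features with the smallest p past the threshold, or all where fewer passed, the 8 most abundant exon and intron features and the paralogs. Exon members that missed the threshold and single snoRNA introns were picked with their values in view. The members and lists were chosen with earlier results of these data known. Library totals were 3481865 to 6975180 counts, and no 2 libraries of a group agreed within sampling noise (chi-square per degree of freedom 9.22 or more). A few members that the naming rule picked are not reported here by name, and count only in the totals.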

Additional observations from a re-analysis of the deposited data

Results flagged for a closer look

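Among 88 groups of 4 libraries, 15 held a library far from the other 3, where chance flags about 1 in 20 groups. Most were exon levels in ethanol replicate 2, which had 5612 CPM of summed exon counts against 1082 to 1699 CPM in the other ethanol libraries, or 0.784% of all its counts against 0.0842% to 0.169%. By gene its exon level was 215 CPM for Rpl10, 148 CPM for Rpl13, 40.9 CPM for Rpl14, 39.9 CPM for Rpl27 and 70.7 CPM for Rpl28. It was 25.1 CPM for Rpl36al, 189 CPM for Rplp0, 134 CPM for Rplp1, 64.0 CPM for Rps14 and 23.2 CPM for Rps4l. The genes share this library, so these flags are not separate events.

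The remaining flags lay elsewhere. Rplp0 exons had 11.3 CPM in control replicate 1, against 16.7 to 17.6 CPM in the other controls. Rpl23 introns had 10.5 CPM in control replicate 3, against 4.86 to 5.56 CPM in the other controls. Rpl7a introns had 160 CPM in ethanol replicate 4, against 238 to 253 CPM in the other ethanol libraries.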

How the results depend on the processing

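The members' exon median stayed positive in all settings run, from 1.09 to 2.62 on the log2 scale. The 74 exon calls, of 77 genes tested, became 0 with limma-voom and with mRNA exons alone and 42 without ethanol replicates 1 and 2. Over all exon features these settings called 0%, 0% and 8.17%, against 23.6% in the main fit. The members' exon calls became 0 to 79 when 1 library was left out, 0 for each control, beside 0% to 37.4% of all exon features. As single exon rows, another unit than genes, 125 of 163 were called. The 8 intron calls became 1 with library totals, limma-voom or introns alone, 13 with DESeq2, and 0 to 16 with 1 library left out. Over all introns the shares called in these settings were 0.678%, 0.0969%, 0.0949% and 10.2%, against 2.13% in the main fit. With 1 library left out they were 0.0178% to 8.43%. The intron median of -1.04 moved to -0.083 with no count filter, -1.48 without ethanol replicates 1 and 2 and -0.49 with introns alone. As a share of mRNA exon counts the summed exon log2 ratio was 1.06. Library totals shifted the median of all features by 0.25. The Rps27a exon value turned to -0.087 with mRNA exons alone, and the Rpl5 intron value to 0.041 with introns alone. With the replicate block 76 exon, 10 intron and 23 ratio calls were made. Over all features the block called 37.2% of exons, 10.1% of introns and 29.3% of ratios, against 23.6%, 2.13% and 12.1% in the main fit. Same-numbered libraries correlated at 0.345, 0.210, -0.129 and -0.0206, within the -0.404 to 0.385 of differently numbered libraries. So few correlations cannot settle whether the numbers pair the libraries. The causes were not tested. Low counts limit the 6 untested paralogs and most intron features.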
